A study of Mus musculus with 35 samples.

Results

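Havcr1, Lcn2, Clu, Krt8, Krt18, Krt19, Krt20, Spp1, Sox9 and Vcam1, 10 genes that kidney tubules are known to switch on or raise after injury and during repair, were followed in newborn mouse kidneys. They were chosen by name, with earlier results of these data known, and all 10 were found among the 31053 genes of the deposited count tables. The question was whether injury genes moved at postnatal day 2 in kidneys that lack the tumour suppressor Flcn, with or without the transcription factors Tfeb or Tfe3.

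Whole kidneys of C57BL/6 mice were profiled in 3 crosses, each with its own controls, and 35 libraries were analysed. In the Flcn cross, 5 libraries labelled Flcn KO (Flcn flox/flox; Ksp-cre+) were set against 5 controls. The second cross added Tfeb flox/flox to the same alleles and gave 4 libraries labelled Flcn/Tfeb DKO and 3 controls. The third joined the Flcn alleles and Cre to a Tfe3-/- background, with 10 libraries labelled Flcn/Tfe3 DKO and 8 controls, and came as 2 tables, called set B (3 controls and 6 DKO) and set C (5 controls and 4 DKO), while the other crosses form set A. The labels name the controls only by their cross. The study describes Flcn flox/flox mice as controls elsewhere, and whether the controls of the other crosses carry Tfeb flox or Tfe3-/- alleles is not given in the sources used here, so a difference between DKO and controls may hold the effect of these alleles too. Ksp-cre is driven by the promoter of Cdh16 and acts in collecting duct, distal tubule and thick ascending limb, so in whole kidney only these cells are meant to lose the floxed genes, whereas the Tfe3-/- allele does not depend on Cre. The labels do not say whether libraries of a group came from separate litters, and p-values measure the spread between these libraries.

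An injured tubule cell loses transport functions, spreads over the bared basement membrane and divides, and a set of transcripts marks these steps. Havcr1 encodes KIM-1, a receptor for dying cells that injured proximal tubules display, and Lcn2 encodes NGAL, a secreted iron-siderophore binding protein that distal segments release within hours of damage. Clu encodes clusterin, a secreted chaperone, and Spp1 encodes osteopontin, a secreted matrix protein. Krt8, Krt18, Krt19 and Krt20 encode intermediate filaments of simple epithelia, Sox9 encodes a transcription factor of nephron formation and of regenerating tubule cells, and Vcam1 encodes an adhesion molecule found on endothelium and on tubule cells that fail to repair. In the newborn kidney several of them are also part of normal development, since Sox9 marks growing ureteric tips and Krt8, Krt18 and Krt19 line the collecting system.

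The libraries held 1652649 to 4239356 counts on genes, so that 3 counts, taken as the detection floor, corresponded to 0.639 to 2.09 CPM (counts per TMM-scaled library size, the scale of all levels below). Flcn itself was not lower in the libraries labelled Flcn KO (log2 fold change 0.09, adjusted p = 0.929 by edgeR), Flcn/Tfeb DKO (0.11, adjusted p = 0.925) or Flcn/Tfe3 DKO (0.20, adjusted p = 0.865), Tfeb stood at -0.73 (adjusted p = 0.798) in Flcn/Tfeb DKO, and Tfe3 at -0.09 (adjusted p = 0.937) in Flcn/Tfe3 DKO. These are 3′ tags, and a tag outside the deleted exons checks nothing. Whether the tags lie outside is not given, so the labels were not checked by these genes. In set A 3 control libraries had a low share of mitochondrial counts, namely control Flcn replicates 4 (4.88%) and 5 (4.93%) and control Flcn/Tfeb replicate 3 (4.47%), while the Flcn KO libraries had 7.33% to 11.1% and the Flcn/Tfeb DKO libraries 10.4% to 11.9%. Leaving out both such controls of the Flcn cross, an alternative chosen after the data were seen, changed the call of Clu, as given beside it.

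The 10 genes spanned from abundant to barely detected in the 16 control libraries, read as CPM of 3′ tags, which need no division by transcript length. Clu was highest, with a median of 217 CPM (lowest 146, highest 286), followed by Spp1 with 162 (121 to 241) and Krt18 with 72.6 (52.5 to 118). Sox9 had a median of 45.9 CPM, Vcam1 35.5, Krt8 33.3 and Krt19 22.7. The bottom of the order was Lcn2 with 5.86 CPM, Krt20 with 3.82 and Havcr1 with 0.672, the last of these under the floor in most libraries. Within a library, Spp1 exceeded Krt18 in 16 of 16 controls and Krt19 exceeded Lcn2 in 16 of 16. The other neighbours changed places between libraries, with Krt18 above Sox9 in 13 of 16 controls, Sox9 above Vcam1 in 12, Vcam1 above Krt8 in 6, Krt8 above Krt19 in 12, Lcn2 above Krt20 in 10 and Krt20 above Havcr1 in 13. Clu exceeded Spp1 in 13 of 16, with a median log2 ratio of 0.32 and an SD of 0.47 over the libraries, and Krt8 over Krt19 had a median of 0.60 and an SD of 0.63. These pairs, as well as Vcam1 with Krt8 and Lcn2 with Krt20, were not separated beyond their spread.

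**Figure D1:**
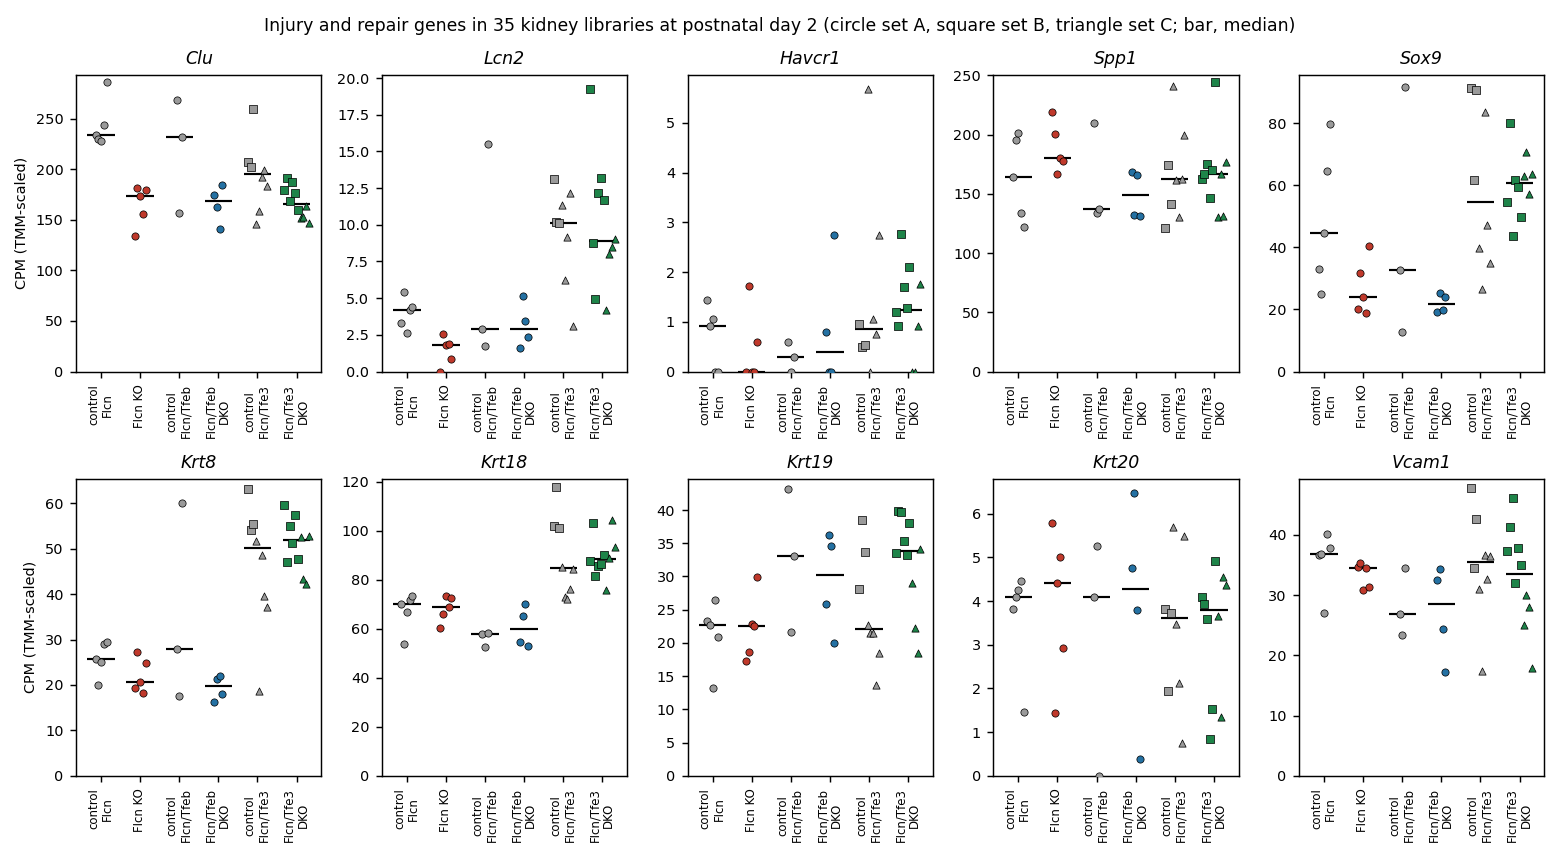
Level of each of the 10 genes (y axis, CPM on TMM-scaled library sizes, from 0) in every library, by group on the x axis, with circles for set A, squares for set B, triangles for set C and a bar at the group median. The 5 Flcn KO libraries lie between 134 and 182 CPM for Clu, under all 5 of their controls, which start at 228 CPM.

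Promoters of 6 of the 10 genes were matched in RefSeq (GRCm38.p6), each covering 250 bases before and 50 after an annotated start. Those of Krt8 and Krt18 are shown because the 2 keratins pair in 1 filament and their genes lie head to head on chromosome 15, 23697 bp apart, that of Krt20 as the low keratin beside them, and that of Lcn2 because its groups did not overlap in the Flcn cross. Each is written 5′ to 3′ on the strand of its gene, and capitals mark TATAAA or its reverse complement TTTATA.
Krt8, chr15:102004293-102004592, minus strand: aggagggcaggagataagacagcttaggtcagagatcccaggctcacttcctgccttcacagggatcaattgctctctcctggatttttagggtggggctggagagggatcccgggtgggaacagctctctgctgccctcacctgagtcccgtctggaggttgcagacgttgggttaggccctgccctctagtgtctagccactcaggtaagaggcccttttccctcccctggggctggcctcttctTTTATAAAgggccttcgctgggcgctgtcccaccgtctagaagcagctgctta
Krt18, chr15:102027966-102028265, plus strand: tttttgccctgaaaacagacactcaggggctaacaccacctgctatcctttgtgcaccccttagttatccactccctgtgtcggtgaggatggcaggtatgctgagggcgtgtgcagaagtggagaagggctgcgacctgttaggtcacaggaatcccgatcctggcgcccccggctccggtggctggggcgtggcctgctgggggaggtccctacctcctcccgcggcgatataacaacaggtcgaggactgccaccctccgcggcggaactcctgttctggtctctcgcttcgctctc
Krt20, chr11:99438104-99438403, minus strand: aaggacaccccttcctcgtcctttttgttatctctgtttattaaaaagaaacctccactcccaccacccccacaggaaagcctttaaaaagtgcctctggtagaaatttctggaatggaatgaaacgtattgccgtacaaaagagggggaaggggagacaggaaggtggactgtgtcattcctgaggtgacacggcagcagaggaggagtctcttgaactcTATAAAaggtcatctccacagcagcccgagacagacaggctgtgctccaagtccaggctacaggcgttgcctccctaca
Lcn2, chr2:32387690-32387989, minus strand: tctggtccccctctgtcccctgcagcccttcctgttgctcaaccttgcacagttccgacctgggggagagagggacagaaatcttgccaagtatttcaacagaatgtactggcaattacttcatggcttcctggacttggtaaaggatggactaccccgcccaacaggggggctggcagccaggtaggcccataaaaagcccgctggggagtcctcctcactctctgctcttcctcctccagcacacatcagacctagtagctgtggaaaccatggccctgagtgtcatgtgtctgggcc

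The TATA letters began at position -29 from the start in Krt20 and stood as an overlapping pair, at -3 and -1, in Krt8, while Krt18 and Lcn2 held none in this window. On both strands, TATAAA was present in 13.6% of the 32851 RefSeq promoters of the same length. The palindrome CACGTG, the core of the element that Tfeb and Tfe3 are known to bind, was present in 7.15% of them and in 0 of the 9 promoters of the 6 matched genes. A match in letters is a description of the window and no binding site.

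In the Flcn cross Clu fell, and no other injury gene among the 10 passed the test over all genes. Of the 10 genes, 8 had enough counts for edgeR's quasi-likelihood test, all but Havcr1 and Lcn2, and 1 of them was called at an adjusted p under 0.05, beside a call rate of 0.52% over all 11932 genes tested (0.453% upward and 0.067% downward). The median log2 fold change of the 8 genes was -0.046, with 4 above and 4 below 0, and that of all genes was -0.0074. No gene of the 10 was called higher.

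Clu (ENSMUSG00000022037, chr14:65968483-65981547 in mm10) measured 233.4, 230, 228, 243 and 286 CPM in the control Flcn libraries and 134, 182, 174, 156 and 179 CPM in the Flcn KO libraries. The groups did not overlap, and every Flcn KO library was under the lowest control. Groups that did not overlap, with Flcn KO lower, were found for 0.712% of all genes tested. The log2 fold change was -0.56 ± 0.12 (SE), a fold of 0.676, with an adjusted p of 0.0315 by edgeR, and the exact permutation p was 0.00794, the smallest that 252 regroupings allow. In whole kidney, fewer cells that express a gene and less RNA per cell cannot be told apart. The call was narrow, since leaving out 1 library at a time kept it in 1 of 10 fits, that without control Flcn replicate 2 (adjusted p = 0.0466), and gave adjusted p-values of up to 0.112 (without Flcn KO replicate 4), with log2 fold changes between -0.61 and -0.50. With the mitochondrial share as a covariate, an alternative chosen after the data were seen, the adjusted p was 0.00421, whereas without control Flcn replicates 4 and 5 the log2 fold change was -0.48 (adjusted p = 0.0722 by edgeR).

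Lcn2 (ENSMUSG00000026822, chr2:32384633-32388252) measured 3.33, 5.45, 2.65, 4.21 and 4.40 CPM in the controls, from 5 to 17 counts. It measured 0, 2.58, 1.84, 1.88 and 0.88 CPM in the Flcn KO libraries, from 0 to 9 counts, 3 of them at or under the floor. The groups did not overlap, with Flcn KO lower, although the gap between 2.58 and 2.65 CPM was smaller than a single count is worth. The difference in mean log2(CPM + 0.5) was -1.43 (exact permutation p = 0.00794, unadjusted, the smallest possible). Without the filter on low counts edgeR gave a log2 fold change of -1.43 ± 0.51 and an adjusted p of 0.375 over 19420 genes, so Lcn2 did not pass.

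Havcr1 (ENSMUSG00000040405, chr11:46735080-46779578) stood at 1.43, 0.909, 1.06, 0 and 0 CPM in the controls and at 0, 1.72, 0, 0 and 0.587 CPM in the Flcn KO libraries, no library holding more than 6 counts. A change in KIM-1 transcript was not detectable at this depth, and no fold is given for the Flcn cross.

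Sox9 (ENSMUSG00000000567, chr11:112782224-112787760) measured 32.9, 25, 44.6, 64.6 and 79.9 CPM in the controls. It measured 20.2, 31.9, 23.9, 18.8 and 40.5 CPM in the Flcn KO libraries. All 5 Flcn KO libraries lay under the control median, but the groups overlapped and the highest controls were replicates 4 and 5, those of low mitochondrial share. The log2 fold change was -0.86 ± 0.27 (adjusted p = 0.272 by edgeR, exact permutation p = 0.0556), it was -0.74 without control Flcn replicate 4, -0.62 without control Flcn replicate 5 and -1.05 without Flcn KO replicate 5, and no such fit passed (lowest adjusted p 0.085). Without both controls it was -0.29.

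The keratins of simple epithelium did not separate the groups of the Flcn cross. Krt8 and Krt18 have pseudogenes, and reads that align to several places were not counted, so their levels may be read low. Krt8 (ENSMUSG00000049382, chr15:101996698-102004482) measured 25.7, 20, 25, 29.0 and 29.4 CPM in the controls and 19.3, 27.3, 20.6, 18.2 and 24.9 CPM in Flcn KO (log2 fold change -0.22, 95% interval -0.56 to 0.13, and -0.069 without control Flcn replicates 4 and 5). Its filament partner Krt18 (ENSMUSG00000023043, chr15:102028180-102032027) measured 70.0, 53.6, 66.9, 71.8 and 73.4 CPM in the controls and 60.2, 66.0, 73.2, 69.0 and 72.5 CPM in Flcn KO (0.02, interval -0.22 to 0.26). Both pairs of ranges overlapped, and the interval of Krt18 was the narrowest among the keratins. Krt19 (chr11:100140810-100148665), which marks ducts, measured 23.3, 22.7, 13.3, 26.5 and 20.8 CPM in the controls and 17.4, 18.7, 22.8, 22.6 and 29.9 CPM in Flcn KO (0.05, interval -0.36 to 0.46). Krt20 (chr11:99428403-99438150), a keratin of urothelium and damaged tubules, ranged from 1.47 to 4.45 CPM in the controls and from 1.43 to 5.78 CPM in Flcn KO (0.05, interval -0.79 to 0.89), so that its low counts leave a wide interval.

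Spp1 and Vcam1 also overlapped. Spp1 (ENSMUSG00000029304, chr5:104435118-104441050) measured 164, 195, 201, 134 and 122 CPM in the controls and 219, 201, 167, 180 and 178 CPM in Flcn KO (log2 fold change 0.21, interval -0.086 to 0.51, adjusted p = 0.674 by edgeR), with all 5 Flcn KO libraries above the control median, and it was 0.012 without control Flcn replicates 4 and 5. Vcam1 (ENSMUSG00000027962, chr3:116109949-116129688) measured 36.7, 36.8, 27.1, 40.1 and 37.9 CPM in the controls and 34.7, 35.3, 30.9, 34.5 and 31.4 CPM in Flcn KO (-0.11, interval -0.39 to 0.17), with all 5 under the control median, and it was -0.017 without control Flcn replicates 4 and 5.

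In the Flcn/Tfeb cross edgeR called 0 of the 8 genes tested, as it called 0% of the 12469 genes tested. At an unadjusted p under 0.05 it found 2 of the 8 (5.07% of all genes), and DESeq2 called 0. Groups that did not overlap were found for 0 of the 8, beside 2.71% of all genes with the DKO higher and 2.94% with the DKO lower. With 3 controls against 4 DKO the smallest permutation p is 0.0286, and in simulated data this comparison recovered 12% of 2-fold changes, against 77% in the Flcn cross. The intervals below are therefore wide.

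Clu measured 269, 156 and 231 CPM in the control Flcn/Tfeb libraries and 174, 163, 141 and 184 CPM in the Flcn/Tfeb DKO libraries. All 4 DKO libraries were under the control median, and control replicate 2 lay among them. The log2 fold change was -0.42, with a 95% interval from -0.86 to 0.029 (adjusted p = 0.798 by edgeR). It was -0.24 without control replicate 1, -0.60 without control replicate 2 and -0.37 without control replicate 3, and none of these fits called it. Sox9 measured 32.7, 12.8 and 91.7 CPM in the controls and 19.1, 25.3, 19.8 and 24 CPM in the DKO (-1.12, unadjusted edgeR p = 0.0411, adjusted p = 0.798). Krt8 measured 28, 17.5 and 60.1 CPM in the controls and 16.3, 21.4, 22.1 and 18.1 CPM in the DKO (-0.91, unadjusted edgeR p = 0.0285, adjusted p = 0.798). For both genes control replicate 3, the library with 4.47% mitochondrial counts, was the highest and control replicate 2 the lowest of the controls, and without replicate 3 the values were -0.07 for Sox9 and -0.24 for Krt8. Lcn2 was also highest in that library, at 15.5 CPM beside 2.92 and 1.75 in the other controls and 1.59, 5.18, 3.43 and 2.36 in the DKO. Summed markers of principal cells stood at 796 CPM in control replicate 3, beside 406 and 450 CPM in replicates 1 and 2. Those of ureteric tip stood at 108 CPM (52.0 and 57.2) and those of urothelium at 69.0 CPM (327 and 292). The part of these cells in the values was not tested.

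The other genes overlapped between the groups of the Flcn/Tfeb cross. Krt18 ranged from 52.5 to 58.3 CPM in the controls and from 53.1 to 70.0 CPM in the DKO (log2 fold change 0.10, interval -0.28 to 0.48). It was 0.026 without DKO replicate 3 and 0.17 without DKO replicate 4. Krt19 stood at -0.18 (interval -0.81 to 0.45), Krt20 at 0.43 (-1.69 to 2.56), Spp1 at -0.11 (-0.56 to 0.34) and Vcam1 at -0.09 (-0.69 to 0.51). Krt19, Krt20, Spp1 and Vcam1 each turned sign in some fit that left out 1 library. Havcr1 stood at 0.584, 0 and 0.287 CPM in the controls and at 0.794, 0, 0 and 2.75 CPM in the DKO, at most 7 counts in a library.

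In the Flcn/Tfe3 cross edgeR, with the table as a term, called 0 of the 9 genes tested, beside a call rate of 0.385% over all 12456 genes (0.345% upward and 0.0401% downward). It found 2 of the 9, Clu and Krt19, at an unadjusted p under 0.05 (7.15% of all genes), and DESeq2 called 0. Over both tables the groups overlapped for all 9, and did not for 0.12% of all genes with the DKO higher and 0.00803% with the DKO lower. The median log2 fold change of the 9 genes was -0.012, beside 0.0090 over all genes.

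Clu had a median of 195 CPM in the 8 controls (lowest 146, highest 259) and of 166 CPM in the 10 Flcn/Tfe3 DKO libraries (147 to 191). All 10 DKO libraries were under the control median, and the range of the controls enclosed that of the DKO. The log2 fold change was -0.25 ± 0.09 (unadjusted edgeR p = 0.00858, adjusted p = 0.419). Regrouping the libraries within each table gave an exact permutation p of 0.00255, unadjusted, where 9.45e-05 is the smallest possible over 10584 regroupings. In set B the controls measured 207, 202 and 259 CPM and the 6 DKO libraries 159 to 191 CPM (difference in mean log2 level -0.32, exact permutation p = 0.0119, the smallest of 84 regroupings). In set C the controls measured 146, 159, 192, 199 and 184 CPM and the DKO libraries 152, 153, 164 and 147 CPM, which overlapped (-0.18, exact permutation p = 0.135).

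Krt19 had a median of 22.2 CPM in the controls (13.7 to 38.5) and of 33.8 CPM in the Flcn/Tfe3 DKO libraries (18.6 to 39.9). The pooled medians mix tables of unequal level, since set B controls held 28.2 to 38.5 CPM and set C controls 13.7 to 22.8 CPM. With the table as a term the log2 fold change was 0.28 (interval 0.0099 to 0.55, adjusted p = 0.665 by edgeR), and the exact permutation p was 0.0513. Within the tables the difference in mean log2 level was 0.14 in set B (exact permutation p = 0.226) and 0.38 in set C (exact permutation p = 0.151).

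Sox9 differed in sign between the tables. In set B the controls measured 91.2, 61.8 and 90.7 CPM and the DKO libraries 43.6 to 80.0 CPM, with a median of 57.0 (difference -0.48, exact permutation p = 0.0476). In set C the controls measured 39.8, 26.4, 83.6, 47.1 and 34.9 CPM and the DKO libraries 63.1, 70.7, 57.2 and 63.6 CPM (0.56, exact permutation p = 0.127). The fit over both gave -0.02 (interval -0.40 to 0.37). Krt18 had the same pattern of signs, at -0.26 in set B (exact permutation p = 0.0357) and 0.21 in set C (exact permutation p = 0.0873). So did Krt8, at -0.12 in set B and 0.36 in set C, and Krt20, at -0.11 and 0.11. Havcr1 had the opposite signs, at 0.86 in set B (exact permutation p = 0.0357) and -0.94 in set C (exact permutation p = 0.302), on at most 13 counts a library. For Havcr1, 2 of 3 controls in set B and 3 of 4 DKO libraries in set C held at most 3 counts. Nothing is read from its signs. Spp1 also had the opposite signs, at 0.28 in set B and -0.22 in set C. By this difference in mean log2 level, Lcn2, Clu, Krt19 and Vcam1 each had the same sign in both tables. The difference between tables was not tested, and these p-values are unadjusted over 10 genes in 2 tables.

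None of the remaining genes passed in the Flcn/Tfe3 cross. Lcn2 had a median of 10.2 CPM in the controls (3.14 to 13.1) and 8.90 CPM in the DKO (4.22 to 19.3), with a log2 fold change of -0.04 (interval -0.56 to 0.47). Krt8 had a median of 50.1 CPM in the controls (18.8 to 63.0) and 52.0 CPM in the DKO (42.3 to 59.5), at 0.09 (-0.19 to 0.36). This value was 0.0049 without control replicate 5 and 0.14 without control replicate 1. The pooled Krt8 medians mix tables of unequal level, since controls held 54.0 to 63.0 CPM in set B and 18.8 to 51.6 CPM in set C. Spp1 stood at 0.02 (-0.26 to 0.30), Vcam1 at -0.21 (-0.48 to 0.068) and Krt20 at 0.0053 (-0.74 to 0.75).

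**Figure D2:**
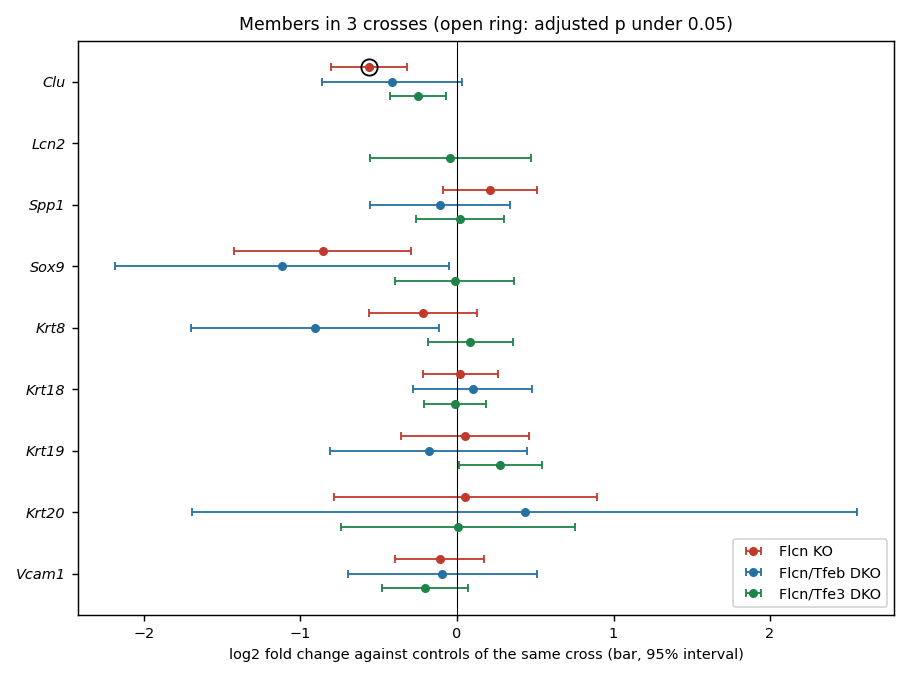
Log2 fold change of each gene against the controls of its own cross (x axis) with the 95% interval of edgeR's fit (bars), in colours for the 3 crosses, and an open ring for an adjusted p under 0.05. Clu in Flcn KO, at -0.56, is the only value with a ring, and Havcr1 is not drawn because it failed the filter on low counts in each cross, as Lcn2 did in 2 of 3.

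Whether an effect differed between crosses was tested as an interaction, each effect against its own controls. None of the 9 genes tested passed in any of the 3 contrasts (0 called by edgeR and 0 by DESeq2). For Flcn/Tfeb DKO less Flcn KO 0.0153% of all genes were called, all lower, and 0 of the 9 had an unadjusted p under 0.05, beside 5.95% of all genes. Lcn2 is counted there, although it failed the filter in each of these crosses fitted alone, and nothing is read from its value. For Flcn/Tfe3 DKO less Flcn KO 0% were called, and 3 of the 9 had an unadjusted p under 0.05, beside 7.4%. For Flcn/Tfe3 DKO less Flcn/Tfeb DKO 0.022% were called, and 2 of the 9 had an unadjusted p under 0.05, beside 12.2%. The Clu effect in Flcn/Tfe3 DKO was 0.32 above that in Flcn KO (interval 0.030 to 0.60, unadjusted edgeR p = 0.0316, adjusted p = 0.661). The Clu effect in Flcn/Tfeb DKO was 0.15 above it (interval -0.30 to 0.60), which shows neither a difference nor that the effects are alike. The Sox9 effect in Flcn/Tfe3 DKO was 0.84 above that in Flcn KO (unadjusted edgeR p = 0.023, adjusted p = 0.661), and 0.26 above it without control Flcn replicates 4 and 5. The last of the 3 genes in that contrast was Lcn2, which failed the filter in the Flcn cross, at 0 to 9 counts in Flcn KO, and entered this fit only through the Flcn/Tfe3 libraries, so nothing is read from its value. Between the double mutants, Krt8 stood at 0.99 (adjusted p = 0.296 by edgeR) and Sox9 at 1.10 (adjusted p = 0.362) in Flcn/Tfe3 DKO less Flcn/Tfeb DKO, and without control Flcn/Tfeb replicate 3 these were 0.32 and 0.044, while without control Flcn/Tfeb replicate 2 Krt8 was called, at 1.29 (adjusted p = 0.0489).

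Sox9 and Krt8 varied between libraries of the same group together with the share of reads that fell on no gene. For the 26 libraries of sets A and C, the tables tally the share of reads that fell on no gene, from 7.92% to 19.9%. After the mean of each group in each set was removed from both measures, log2 CPM of Sox9 and this share had a Pearson r of -0.91 (permutation p = 1e-05, the smallest that 100000 permutations within groups can give, adjusted p = 0.00018 over 18 relations) and a Spearman rho of -0.81 (permutation p = 0.00032, adjusted p = 0.0029). It was -0.87 without the 2 libraries farthest from the median share, -0.93 within set A and -0.87 within set C. For Krt8 r was -0.78 (adjusted permutation p = 0.002), rho -0.69 (adjusted permutation p = 0.0065), and r was -0.74 without the 2 farthest, -0.84 in set A and -0.69 in set C. Vcam1 had an r of -0.54 (adjusted permutation p = 0.0045) and a rho of -0.65 (adjusted permutation p = 0.0029).

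Clu, the gene called in the Flcn cross, had an r of -0.57 with the same share (adjusted permutation p = 0.076) and a rho of -0.64 (adjusted permutation p = 0.014). Krt20 went the other way, with an r of 0.58 (adjusted permutation p = 0.026) that was 0.39 without the 2 farthest libraries, and a rho of 0.41 (adjusted permutation p = 0.13). Krt18 (-0.33), Krt19 (-0.12), Spp1 (0.47) and Lcn2 (-0.46) had adjusted permutation p-values of 0.12 or above. The share of mitochondrial counts, known for all 35 libraries, gave the same signs, with an r of -0.77 for Sox9 (adjusted permutation p = 0.0029), -0.67 for Krt8 (adjusted permutation p = 0.0043) and -0.53 for Vcam1 (adjusted permutation p = 0.002), but within set B r was 0.32 for Sox9 and 0.17 for Krt8. The share on no gene was 9.06% to 18% in the control Flcn libraries and 12.9% to 18.1% in Flcn KO, and 9.07% to 19.9% in the control Flcn/Tfeb libraries and 18.8% to 19.4% in the DKO. With the mitochondrial share as a covariate Sox9 stood at -0.63 (adjusted p = 0.0563 by edgeR) in the Flcn cross and at 0.53 in the Flcn/Tfeb cross, and Krt8 at 0.11 in the latter, so that both turned sign there.

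**Figure D3:**
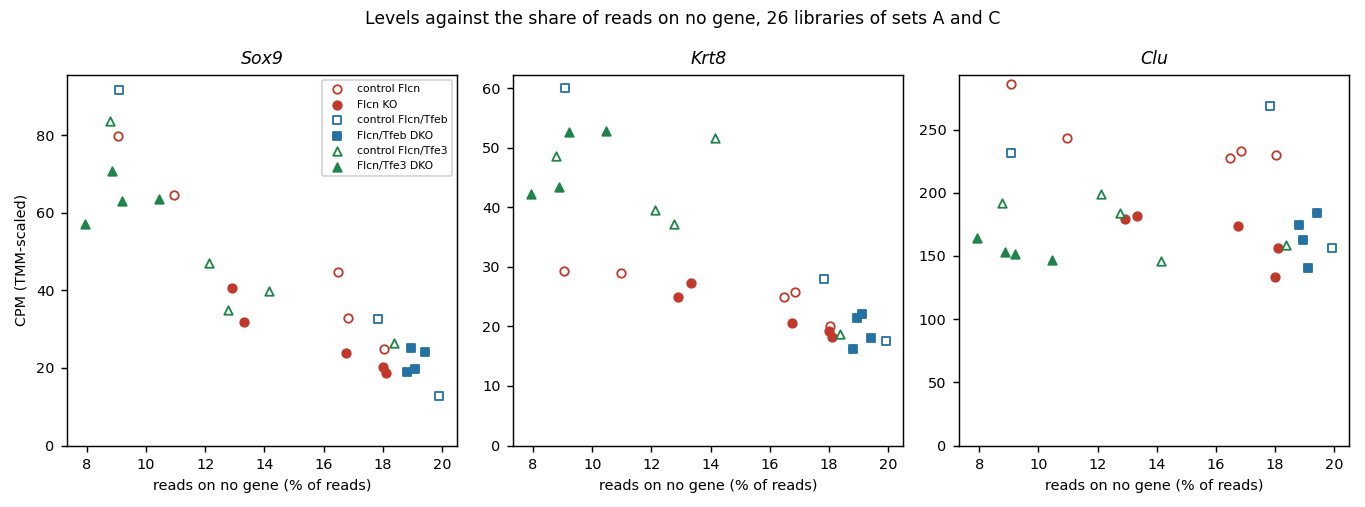
Levels of Sox9, Krt8 and Clu (y axes, CPM, from 0) against the share of reads on no gene (x axes, percent of reads) in the 26 libraries of sets A and C, with open symbols for controls and filled symbols for KO or DKO. Sox9 lies at 79.9 CPM in the control Flcn library with a share of 9.06% and at 25 CPM in the one with 18%. All 5 Flcn KO libraries have a share of at least 12.9%, and for Clu they lie under all 5 controls; the part of the share in this was not tested.

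The 9 genes with enough counts over all 35 libraries did not vary as a block. Lcn2 is among them although it failed the filter in the Flcn and Flcn/Tfeb crosses, each fitted alone. Its relations here and below therefore rest on low counts in set A, and nothing is read from them. The count of pairs and their median include those of Lcn2. Of the 36 pairs, 27 had a Pearson r above 0 after group means within each set were removed, with a median of 0.15. Krt8 and Sox9 were the most alike, with an r of 0.77 (adjusted permutation p = 0.029 over 36 pairs), a rho of 0.65 (adjusted permutation p = 0.017) and an r of 0.70 without the 2 farthest libraries. Within sets it was 0.91 in A, -0.12 in B and 0.68 in C, so the relation did not hold in set B. Clu and Sox9 came next, with an r of 0.62 (adjusted permutation p = 0.13) and a rho of 0.64 (adjusted permutation p = 0.018). Krt8 and Krt18, the filament partners, had an r of 0.26, and the lowest pair was Krt20 and Sox9 with -0.55 (adjusted permutation p = 0.13). Both quality shares above also vary between these libraries, and their part in these relations was not tested.

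**Figure D4:**
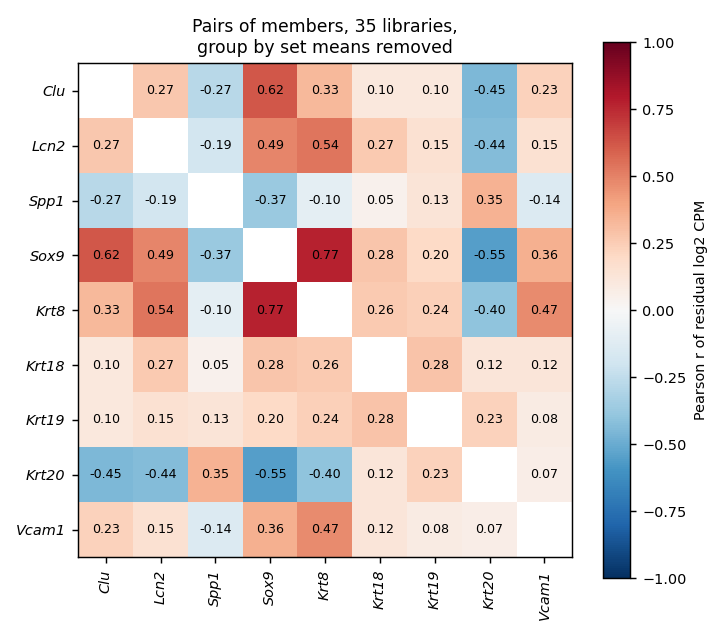
Pearson r between each pair of the 9 genes over 35 libraries (rows and columns are genes, colour from -1 to 1), computed on log2 CPM with the mean of each group in each set removed. The square of Krt8 and Sox9, 0.77, is the darkest, and those of Krt20 with Sox9 (-0.55), Clu (-0.45) and Lcn2 (-0.44) are the lowest. Squares of Lcn2 rest on low counts in set A, and nothing is read from them.

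The median ratio within the filament pair varied between groups, and in control Flcn/Tfeb replicate 3, the library with 4.47% mitochondrial counts, Krt8 was level with Krt18 (log2 ratio 0.042). Krt18 exceeded Krt8 by a median of 2.64-fold in control Flcn and 3.07-fold in Flcn KO libraries, 2.04-fold in control Flcn/Tfeb and 3.07-fold in Flcn/Tfeb DKO, and 1.87-fold in control Flcn/Tfe3 and 1.71-fold in Flcn/Tfe3 DKO. The difference between crosses was not tested, and the Flcn/Tfe3 cross comes from other tables than the rest.

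For each gene the 2 transcripts most like it over the 35 libraries, by Pearson r of the same residuals among 13728 genes, are named as a description, and high values are bound to occur among so many. They were Papss2 (0.92) and Psmd2 (0.90) for Sox9, Itm2b (0.89) and Lamp2 (0.84) for Spp1, and Atp5a1 (0.87) and Nucb1 (0.87) for Krt8. For Clu they were Acads (0.72) and Ltbp1 (0.71), for Lcn2 Cnot9 (0.77) and Yipf3 (0.75), and for Vcam1 Fam129a (0.72) and Sept6 (0.72). Krt20 was nearest to Rnf149 (0.74) and to Psca (0.73), a gene of urothelium, Krt19 to Tmem184a (0.65) and Rrs1 (0.59), and Krt18 to Mcat (0.61) and Ubac1 (0.61). None of the nearest genes was itself among the 10.

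A wider list of 42 other injury and repair genes (cytokines, growth factors, acute phase proteins, annexins and S100 proteins) was read in the same fits. The list was chosen with earlier results of these data known. Its counts beside the shares over all genes are therefore a description and no test of the list. In the Flcn cross 33 of them were tested, 2 were called higher and 0 lower (beside 0.453% and 0.067% of all genes), an unadjusted p under 0.05 was found for 6 that stood higher and 1 that stood lower (9.07% of all genes), 16 were above and 17 below 0, and the median log2 fold change was -0.0078, beside -0.0074 over all genes. In the Flcn/Tfeb cross 0 of 36 were called by edgeR and 0 by DESeq2, with 1 at an unadjusted p under 0.05 (5.07% of all genes) and a median of -0.018 beside -0.017. In the Flcn/Tfe3 cross 0 of 36 were called by edgeR and 1, Krt7, by DESeq2, with 8 at an unadjusted p under 0.05 (7.15% of all genes), 11 above and 25 below 0, and a median of -0.088 beside 0.0090.

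The 2 genes called in the Flcn cross were Gdf15 and Cxcl16. Gdf15 (ENSMUSG00000038508), a secreted stress hormone, measured 29.9 ± 3.76 CPM (SD, n = 5) in Flcn KO and 12.9 ± 4.74 (SD, n = 5) in the controls, with 24.7 to 35.1 CPM against 6.19 to 18.1. The groups did not overlap, with Flcn KO higher, as for 1.67% of all genes tested. The log2 fold change was 1.26 ± 0.23 (SE, adjusted p = 0.0119 by edgeR), and it kept its call in 10 of 10 fits that left out 1 library, and without control Flcn replicates 4 and 5 (0.92, adjusted p = 0.0425). In Flcn/Tfeb DKO it stood at 0.18 (adjusted p = 0.911), from -0.20 without control replicate 3 to 0.71 without control replicate 1. In Flcn/Tfe3 DKO it stood at -0.20 (adjusted p = 0.865). The effect in Flcn/Tfe3 DKO less that in Flcn KO was -1.44 ± 0.30 (unadjusted edgeR p = 2.99e-05, adjusted p = 0.295, and adjusted p = 0.0202 by DESeq2), and that in Flcn/Tfeb DKO less Flcn KO was -1.05 (adjusted p = 0.824 by edgeR), and it was -0.51 when replicate 1 of the control Flcn/Tfeb libraries was left out (-1.45 when replicate 3 was).

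Cxcl16 (ENSMUSG00000018920), a chemokine that also exists as a membrane-bound form, measured 26.1 ± 6.00 CPM (SD, n = 5) in Flcn KO and 12.7 ± 1.78 (SD, n = 5) in the controls. The log2 fold change was 1.05 ± 0.19 (adjusted p = 0.0119 by edgeR), and the call held in 9 of 10 fits that left out 1 library, with an adjusted p of 0.0534 without Flcn KO replicate 2. Without control Flcn replicates 4 and 5 it was lost (0.94, adjusted p = 0.0767). It stood at 0.28 (adjusted p = 0.814) in Flcn/Tfeb DKO, from 0.12 without control replicate 2 to 0.52 without control replicate 1, and at 0.46 (adjusted p = 0.427) in Flcn/Tfe3 DKO, and neither difference from Flcn KO passed (-0.77, adjusted p = 0.824, and -0.58, adjusted p = 0.661).

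Among the listed genes that did not pass in the Flcn cross, the highest value after Gdf15 and Cxcl16 was that of Tnfrsf12a, the receptor of TWEAK (0.75, adjusted p = 0.533). The 3 lowest were those of Fgg, the fibrinogen gamma chain (-0.56), Ctgf, a matrix-associated growth regulator (-0.52) and Fgb, the fibrinogen beta chain (-0.35). In Flcn/Tfeb DKO the 3 highest and lowest were complement C3 (1.73, adjusted p = 0.798), Fgb (1.18) and Fgg (1.07) on the high side and Tgfb1 (-0.67), the cell cycle inhibitor Cdkn1a (-0.62) and Il34 (-0.60) on the low side. In Flcn/Tfe3 DKO these were Atf3 (0.64), Krt7 (0.47, adjusted p = 0.0503) and Cxcl16 on the high side, and Fgg (-2.13, adjusted p = 0.416), Fgb (-1.89) and C3 (-1.74) on the low side. In set C alone edgeR called Fgg (-4.46, adjusted p = 0.00986), Fgb (-2.58, adjusted p = 0.0278) and C3 (-2.67, adjusted p = 0.0186) lower. That fit also called far more of all genes than the 0.385% called over both sets, as given at the end. These calls are therefore not particular to the listed genes. The acute phase genes varied widely within groups, with Fgb at 13.7 to 319 CPM in the control Flcn/Tfe3 libraries and 8.30 to 94.0 CPM in the DKO. Krt7, a keratin of the collecting system, measured 160 ± 23.7 CPM (SD, n = 10) in Flcn/Tfe3 DKO and 110 ± 33.7 (SD, n = 8) in the controls. It passed with DESeq2 (log2 fold change 0.45, adjusted p = 0.013) and in 3 of the 18 edgeR fits that left out 1 library, so that it lay at the threshold. The Krt7 means pool set B and set C, which hold controls and DKO in unequal numbers. In Flcn KO Krt7 stood at 0.46 (adjusted p = 0.127 by edgeR), and in Flcn/Tfeb DKO at -0.29 (adjusted p = 0.800).

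**Figure D5:**
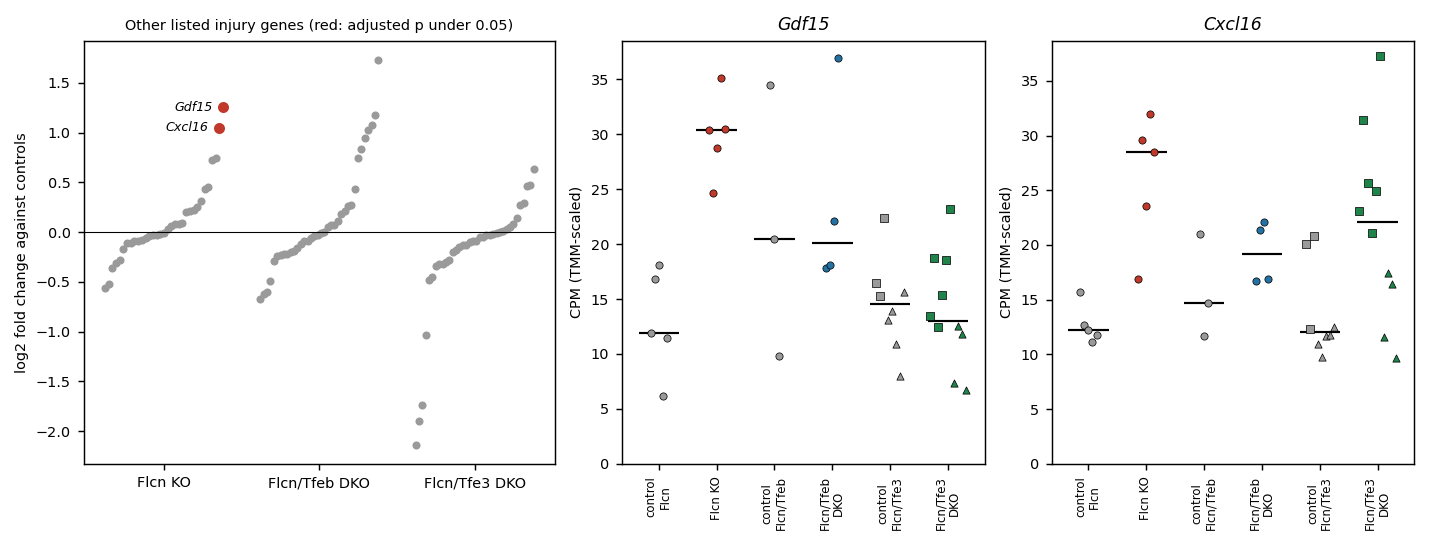
Left, log2 fold change (y axis) of the other listed injury genes tested in each cross, each point a gene in rank order and red for an adjusted p under 0.05, and right, Gdf15 and Cxcl16 in every library (y axis, CPM, from 0) with a bar at the group median. Both genes are higher in the 5 Flcn KO libraries than in all 5 controls, at 24.7 to 35.1 CPM against 6.19 to 18.1 for Gdf15.

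Markers of other cell types were read beside these genes, as 14 lists of summed levels, of which 2 did not overlap between the groups of the Flcn cross. The lists were chosen with earlier results of these data known. Among all single genes tested there, groups did not overlap for 1.67% with Flcn KO higher and 0.712% with it lower. Of these genes 0.453% were called higher and 0.067% lower. Markers of intercalated cells, the acid-base cells of the collecting duct, ranged from 162 to 239 CPM in the control Flcn libraries and from 399.6 to 531 CPM in Flcn KO, and 2 of the 6 tested were called higher, Atp6v1g3 (log2 fold change 1.31, adjusted p = 0.00086 by edgeR) and Aqp6 (2.06, adjusted p = 7.5e-05). Podocyte markers ranged from 377 to 402 CPM in the controls and from 309 to 365 CPM in Flcn KO, with 0 of 5 called. Umod, a marker of thick ascending limb (1.001, adjusted p = 0.0004), and Scnn1b, of principal cells (0.58, adjusted p = 0.0491), were also called higher. In Flcn/Tfe3 DKO, Aqp6 (1.81, adjusted p = 2.5e-06 by edgeR) and Umod (0.71, adjusted p = 0.00022) were called higher too, beside 0.345% of all genes. Intercalated cell markers had a median of 243 CPM in the control Flcn/Tfeb libraries and 285 CPM in the DKO, without overlap, and ranged from 167 to 281 CPM in the control Flcn/Tfe3 libraries and from 279 to 430.02 CPM in the DKO. In the Flcn/Tfeb cross single genes did not overlap for 2.71% with the DKO higher and 2.94% with it lower. No summed level was tested. The part of these markers in the Clu, Gdf15 and Cxcl16 values was not tested. The summed level of 8 neutrophil markers, a further source of Lcn2 transcript, ranged from 28.5 to 119 CPM in the control Flcn libraries (median 56.2) and from 61.0 to 182 CPM in Flcn KO (median 124), ranges that overlapped. Of the 8, 2 were tested and 0 called, none was at 0 throughout either group, and their part in the Lcn2 levels was not tested. In the Flcn/Tfeb cross neutrophil markers summed to 36.5 to 154 CPM in the controls and 146 to 376 CPM in the DKO. In the Flcn/Tfe3 cross they summed to 17.3 to 291 CPM and 16.6 to 196 CPM, with 0 called in either cross. Their part in the C3, Fgb and Fgg values was not tested. Summed urothelial markers, 7 genes, ranged from 94.8 to 291 CPM in the control Flcn libraries and from 152 to 249 CPM in Flcn KO. Summed proximal tubule markers, 8 genes, ranged from 2508 to 3448 CPM in the controls and from 2244 to 2822 CPM in Flcn KO, and 4 ureteric tip markers, a site of Sox9, from 50.9 to 94.2 CPM and from 36.6 to 57.7 CPM. No marker of any of the 14 lists was called lower in the Flcn cross. Markers of the tissue were present in every group, with proximal tubule markers summing to at least 1792 CPM and podocyte markers to at least 279 CPM in each of the 35 libraries.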

How the data were processed

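QuantSeq 3′ mRNA libraries of whole kidneys at postnatal day 2 were sequenced by the authors. According to the study's methods, reads were trimmed with bbduk (the submitters' processing notes name Trim Galore), aligned to mm10 with STAR and counted per gene with HTSeq-count, and the counts were deposited without normalisation. Tallies of reads on no gene or on several places were left out of library sizes and tests. A deposited column named as the percentage of reads aligned to several places, 1 column for all libraries, was 0 or empty throughout and was not used. In R 4.3.3, each cross was fitted with edgeR 4.0.16 (filterByExpr, TMM factors, quasi-likelihood F test, two-sided, Benjamini-Hochberg over all genes tested, called at an adjusted p under 0.05), with the table as a term in the Flcn/Tfe3 cross, and differences between crosses were fitted as interactions. The 95% intervals come from these fits. Levels are CPM on TMM-scaled library sizes over all 35 libraries. Single genes were also tested by exact two-sided permutation of mean log2(CPM + 0.5), within table for the Flcn/Tfe3 cross. The fits were tested on simulated counts. Counts of libraries of a group were compared in 63 pairs, and each pair differed by more than sampling noise (chi-square over its degrees of freedom at least 2.85), so all were kept as separate samples. The floor of 3 counts covers counting error only.

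The 10 genes, the list of 42 other injury genes and the marker lists were chosen with earlier results of these data known. All 10 genes are named, and of the wider list each called gene and the 3 largest rises and falls per cross. Of that list 40 genes were found under their own symbol and 2 under an older one (Ctgf and Cyr61). Alternatives were RLE factors, DESeq2 1.42.0, no filter, a mean of at least 10 counts, a replicate block, Xist as a covariate for sex, each table alone, a pseudocount of 2, leaving out each library and, chosen after seeing the data, the mitochondrial share as a covariate and the control Flcn and Flcn/Tfeb libraries under 5% mitochondrial counts left out together. Reads aligned to more than 1 place were not counted, so genes with near-identical copies, such as keratins with pseudogenes, could lose reads.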

Additional observations from a re-analysis of the deposited data

Results flagged for a closer look

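Dixon's test over each gene in each group of 4 to 6 libraries, taken within a table, marked 4 of 60 sets of values, where chance marks about 1 in 20. Clu stood at 286 CPM in control Flcn replicate 5, above the other controls of that cross at 228 to 243 CPM. Krt20 stood at 1.47 CPM in the same library, below the others at 3.81 to 4.45 CPM. Vcam1 stood at 27.1 CPM in control Flcn replicate 3, below the others at 36.7 to 40.1 CPM. Spp1 stood at 245 CPM in Flcn/Tfe3 DKO replicate 6 of set B, above the others of that table at 147 to 176 CPM. Control Flcn replicate 5 had 4.93% mitochondrial counts, and without it Clu in the Flcn cross stood at -0.50, one of 9 fits without 1 library, of 10, that did not call it.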

How the results depend on the processing

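The number of the 10 genes called in the Flcn cross, 1, stood with RLE factors, DESeq2, no filter, a mean of 10 counts, Xist and the mitochondrial share (the last chosen after seeing the data), and was 0 without the 2 controls of low mitochondrial share (also chosen after seeing the data), and ranged from 0 to 1 when 1 library was left out, with Clu called in the fit without control Flcn replicate 2 and in no other of the 10. In the Flcn/Tfeb and Flcn/Tfe3 crosses and for 2 of the 3 differences between crosses it was 0 throughout. For Flcn/Tfe3 DKO less Flcn/Tfeb DKO it ranged from 0 to 1 over the fits without 1 library, the 1 being Krt8 without control Flcn/Tfeb replicate 2. Of the other listed genes, 2 in the Flcn cross became 4 with the mitochondrial share (Krt7 and S100a6 added, named after their values were seen) and 1 to 3 without 1 library, 1 without Flcn KO replicate 2, and 1 without the 2 controls of low mitochondrial share (Gdf15). In the Flcn/Tfe3 cross 0 became 1 with DESeq2, 1 with no filter and 0 to 1 without 1 library (Krt7 each time, without control replicate 3 or DKO replicates 3 or 5), and 6 in set C alone (Krt7 higher, and C3, Fgb, Fgg, Anxa3 and S100a10 lower). Set C alone also called far more of all genes than the fit over both sets, as given below. Krt19 in the Flcn/Tfe3 cross differed by 0.25 with a pseudocount of 2 (exact permutation p = 0.0494).

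With the replicate number as a block the count of the 10 genes called in the Flcn cross became 0, since Clu stood at an adjusted p of 0.0588 by edgeR, Vcam1 turned to 0.083 in the Flcn/Tfeb cross, and all genes called went from 62 to 48 in the Flcn cross and from 48 to 2 in the Flcn/Tfe3 cross. Same-numbered libraries had correlations of -0.32 to 0.31, of both signs. The labels do not say whether they share more than a number, and whether the block belongs in the fit was not tested.

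None of the values that changed sign was called in its main fit or its alternative. With the mitochondrial share these were Krt20 at -0.067 in the Flcn cross, Krt8 at 0.11, Krt20 at -0.93, Sox9 at 0.53, Vcam1 at 0.28 and Gdf15 at -0.55 in the Flcn/Tfeb cross, Krt8 at -0.032 in the Flcn/Tfe3 cross, and Krt8 at -0.041 and Sox9 at -0.56 for Flcn/Tfe3 DKO less Flcn/Tfeb DKO. In the Flcn/Tfe3 cross, set B alone gave Lcn2 0.078, Krt8 -0.11 and Krt20 -0.0078, set C alone gave Krt18 0.19, Krt20 -0.013, Spp1 -0.26 and Sox9 0.42, no filter gave Krt18 0.0050, and Krt20 was -0.013 with RLE factors or DESeq2, -0.00015 with a mean of 10 counts and -0.15 with Xist. Without 1 library, ranges that crossed 0 were, in the Flcn cross, Krt18 -0.048 to 0.059, Krt19 -0.090 to 0.15 and Krt20 -0.13 to 0.11. In the Flcn/Tfeb cross they were Krt19 -0.39 to 0.057, Krt20 -0.34 to 1.15, Spp1 -0.22 to 0.13, Vcam1 -0.21 to 0.088 and Gdf15 -0.20 to 0.71. In the Flcn/Tfe3 cross they were Lcn2 -0.15 to 0.047, Krt18 -0.070 to 0.048, Krt20 -0.13 to 0.13, Spp1 -0.066 to 0.092 and Sox9 -0.099 to 0.093. The cause was not tested in any of these.

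All genes called, the background of these counts, moved from 62 to 113 with DESeq2, 95 with no filter and 147 with the mitochondrial share and to 37 to 58 without 1 library (37 without Flcn KO replicate 3) in the Flcn cross, and from 48 to 30 to 53 without 1 library (30 without Flcn/Tfe3 DKO replicate 7), to 96 with DESeq2, 26 with Xist, 28 with the mitochondrial share, 8 in set B and 569 in set C in the Flcn/Tfe3 cross. For Flcn/Tfe3 DKO less Flcn KO 0 became 459 in set C, and for Flcn/Tfe3 DKO less Flcn/Tfeb DKO 3 became 13 with DESeq2 and 1 to 82 without 1 library. Havcr1, Lcn2 and Krt20 are limited by depth, at a floor of 0.639 to 2.09 CPM.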
